A study of Mus musculus with 2 samples.

Results

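The genes described here are 10 that encode proteoglycans, microfibril and matrix glycoproteins, collagen crosslinking enzymes and surface proteins of fibroblasts: Dcn, Lum, Bgn, Vcan, Fbn1, Ccdc80, Lox, Loxl2, Fap and Pdgfra. They were chosen by symbol, and all 10 were found among the 34259 rows that hold counts, out of 34290 rows deposited. The series sequenced bulk RNA of 4T1 tumours. 4T1 is a mouse mammary carcinoma cell line that forms tumours with a stroma of host cells. The treated group is 1 tumour of a degrader arm, collected after 3 injections of a protein degrader, directed at an autophagy-related protein that the labels do not name. The control group is 1 tumour labelled as control, with no vehicle named. The labels do not give the host strain, age, dose, interval between injections or tumour age for either tumour. The labels give batch 1 for the treated and batch 2 for the control library, and a batch effect cannot be told apart from treatment. Each group has 1 library, so no replicate error can be set against a difference, no test between conditions was made, and every comparison below is between these 2 libraries.

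The fibrous matrix of a tumour is built mostly by fibroblasts. Small leucine-rich proteoglycans coat collagen fibrils and control their thickness and spacing, versican binds hyaluronan in the loose matrix, and fibrillin forms microfibrils that hold elastin and latent TGF-beta. Lysyl oxidases then crosslink collagen and elastin chains, which stiffens the tissue. PDGF receptor alpha and fibroblast activation protein are surface proteins used to recognise fibroblasts and their activated forms in tumours. Carcinoma cells can also make several of these products, lysyl oxidases among them, and RNA of the whole tumour does not say which cells a transcript came from.

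The treated library summed to 3824323 counts and the control library to 2252214 counts. Levels are CPM, counts per 1000000 of a library total corrected by the TMM method, a trimmed mean of log ratios over all genes. A single count is worth 0.259 CPM for the treated tumour and 0.449 CPM for the control. Fibroblast transcripts were present in both libraries: Col3a1, a fibrillar collagen, had 2436 counts in the treated tumour, against 1689 in the control tumour, and none of the 10 fibroblast markers, 4 of which are among the genes described here, was at 0 in either library. Levels of different genes are not compared, since transcripts differ in length and how the kit samples a transcript is not stated. In bulk RNA, fewer cells of a type and less RNA per cell cannot be told apart.

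The 10 genes did not differ in 1 direction between the libraries. Dcn and Pdgfra were more than 2-fold higher in the treated tumour and Lum was slightly higher, whereas Fbn1, Ccdc80, Lox and Loxl2 were more than 2-fold lower, with Bgn and Vcan less so. The counts that follow take a gene as different when log2(CPM + 1) differs by 1 or more, a 2-fold step, and ask for an average level of 10 CPM across the pair of libraries. Of the 8 genes that reached this minimum, 1 was at least 2-fold higher, where 4.23% of all 8865 such genes were, and 4 were at least 2-fold lower, where 2.50% of them were. With the libraries scaled on their fibrillar collagen counts in place of their totals, 1 was higher, where 10.6% of all genes past the minimum were, and 1 lower, where 0.977% were. Pdgfra and Fap, at means of 9.07 and 3.86 CPM, stayed under the minimum. With no minimum, 2 of the 10 were at least 2-fold higher, against 7.03% of the 19296 genes with a count, and 4 were at least 2-fold lower, against 4.01%. The median log2 ratio of the 10 genes was -0.81, from -1.35 for Ccdc80 to 1.26 for Pdgfra. Over the 8 past the minimum it was -0.86, while the median over all genes past the minimum was 0.03.

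**Figure D1:**
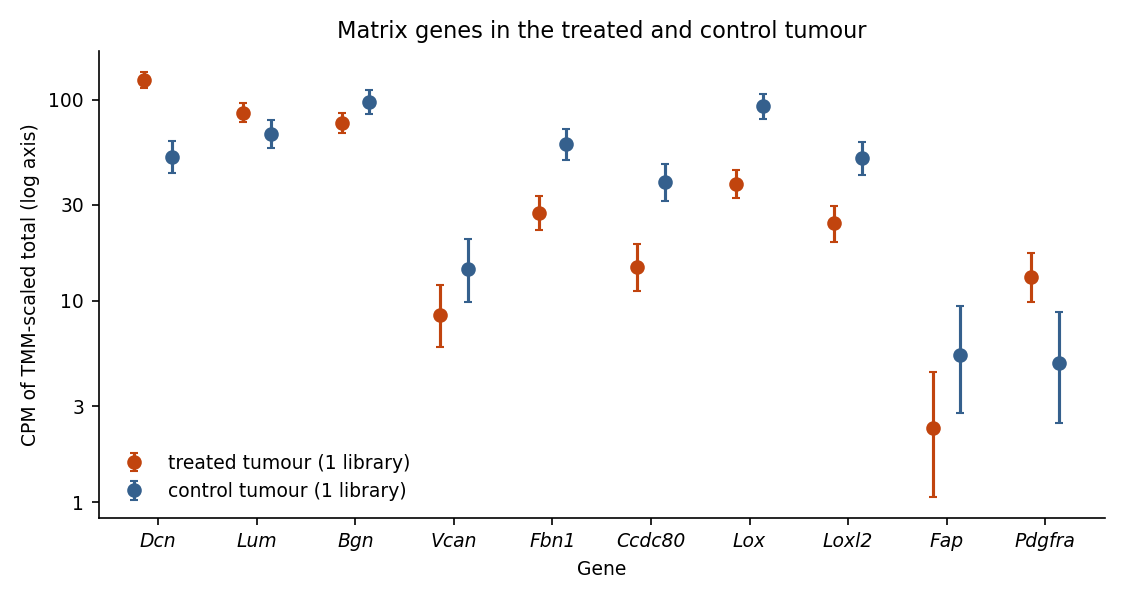
Level of each gene in CPM of the scaled library total (log axis) in the treated and the control tumour; each point is 1 library and each bar its exact Poisson 95% interval, which covers counting error only. Dcn, Lum and Pdgfra lie higher in the treated tumour, and the other 7 genes lie lower (Bgn not when the libraries are scaled on collagen), with wide intervals for Vcan, Fap and Pdgfra.

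Decorin, the product of Dcn, binds collagen fibrils and TGF-beta. Dcn (ENSMUSG00000019929, mm10 chromosome 10, 97479609 to 97518143, plus strand) had 486 counts (126 CPM) in the treated tumour, against 116 counts (52.1 CPM) in the control tumour. The treated tumour was higher by 2.42-fold, with a 95% counting interval of 1.97 to 2.98. Intervals of folds here and below are exact conditional binomial intervals, which cover counting error only and not the variation between tumours. Lum (lumican), which regulates the assembly of collagen fibrils, lies 47.0 kb downstream of Dcn on the same strand (97565128 to 97572703). It had 333 counts (86.2 CPM) in the treated tumour, against 151 counts (67.8 CPM) in the control tumour, a ratio of 1.27 (1.05 to 1.55). Dcn differed more than its neighbour: there were 1.46 counts of Dcn for each of Lum in the treated tumour and 0.768 in the control tumour, a 1.90-fold difference (1.42 to 2.54) that no scaling between libraries can change. The next 2 genes of this cluster, Kera and Epyc, which encode proteoglycans of cornea and cartilage, were listed at 0 counts in both libraries, where a count of 0 allows up to 3 counts, 0.776 CPM for the treated and 1.35 CPM for the control library.

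Bgn (biglycan), the close relative of decorin on the X chromosome (73483602 to 73495933, plus strand), had 297 counts (76.8 CPM) in the treated tumour, against 218 counts (97.8 CPM) in the control tumour. It was 1.27-fold lower in the treated tumour (1.06 to 1.52), so the 3 relatives differed in both directions. The ratio of Dcn to Bgn counts was 1.64 in the treated and 0.532 in the control tumour, a 3.07-fold difference (2.33 to 4.06). Relative to the summed counts of Col1a1, Col1a2 and Col3a1, a measure of fibrillar collagen transcripts in the same library, Bgn had a ratio of 1.00 (0.836 to 1.21), whereas Dcn was 3.09-fold (2.50 to 3.83) and Lum 1.62-fold (1.33 to 1.99) higher in the treated tumour.

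Vcan (versican; chromosome 13, 89655312 to 89742509, minus strand), the large hyaluronan-binding proteoglycan, was sparse. It had 33 counts (8.54 CPM) in the treated tumour, against 32 counts (14.4 CPM) in the control tumour. Its ratio, treated over control, was 0.595 with an interval of 0.354 to 0.999, whose upper end lies just under 1. Relative to the 3 collagen genes its ratio was 0.760 (0.452 to 1.28), an interval that contains 1.

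Fbn1 (fibrillin-1; chromosome 2, 125300594 to 125507993, minus strand), the backbone of microfibrils, had 106 counts (27.4 CPM) in the treated tumour, against 134 counts (60.1 CPM) in the control tumour. The treated tumour was 2.19-fold lower (1.69 to 2.86). Ccdc80 (chromosome 16, 45093402 to 45128077, plus strand) encodes a secreted protein of the matrix that is also made in adipose tissue. It had 57 counts (14.7 CPM) in the treated tumour, against 87 counts (39.0 CPM) in the control tumour. At 2.65-fold lower (1.87 to 3.76), it had the lowest ratio of the 10 genes, and it was the one gene of the 4 that stayed past the 2-fold rule, at -1.01 on the log2 scale, when the libraries were scaled on their collagen counts.

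Lox and Loxl2, which oxidise lysine side chains so that collagens and elastin crosslink, were both lower in the treated tumour. Lox (chromosome 18, 52516067 to 52529867, minus strand) had 148 counts (38.3 CPM) in the treated tumour, against 207 counts (92.9 CPM) in the control tumour, 2.43-fold lower (1.95 to 3.02). Loxl2 (chromosome 14, 69609068 to 69695834, plus strand) had 94 counts (24.3 CPM) in the treated tumour, against 114 counts (51.2 CPM) in the control tumour, 2.10-fold lower (1.59 to 2.79). The pair kept close proportions to each other, with 1.57 counts of Lox for each of Loxl2 in the treated and 1.82 in the control tumour, a ratio of 0.867 (0.605 to 1.24). The log2 ratio of Loxl2, -1.04, lies just past the 2-fold rule.

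The surface proteins were rare and lay on opposite sides. Pdgfra (chromosome 5, 75152292 to 75198215, plus strand), the receptor for PDGF ligands that marks most tissue fibroblasts, had 51 counts (13.2 CPM) in the treated tumour, against 11 counts (4.94 CPM) in the control tumour. It was 2.67-fold higher in the treated tumour (1.38 to 5.69). Fap (chromosome 2, 62500943 to 62574075, minus strand), a membrane protease of activated fibroblasts, had 9 counts (2.33 CPM) in the treated tumour, against 12 counts (5.38 CPM) in the control tumour. Its ratio of 0.432 had an interval of 0.161 to 1.12, so a difference in Fap was not detectable at this depth. The ratio of Pdgfra to Fap counts was 5.67 in the treated and 0.917 in the control tumour, a 6.01-fold difference with a wide interval of 1.83 to 20.9.

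**Figure D2:**
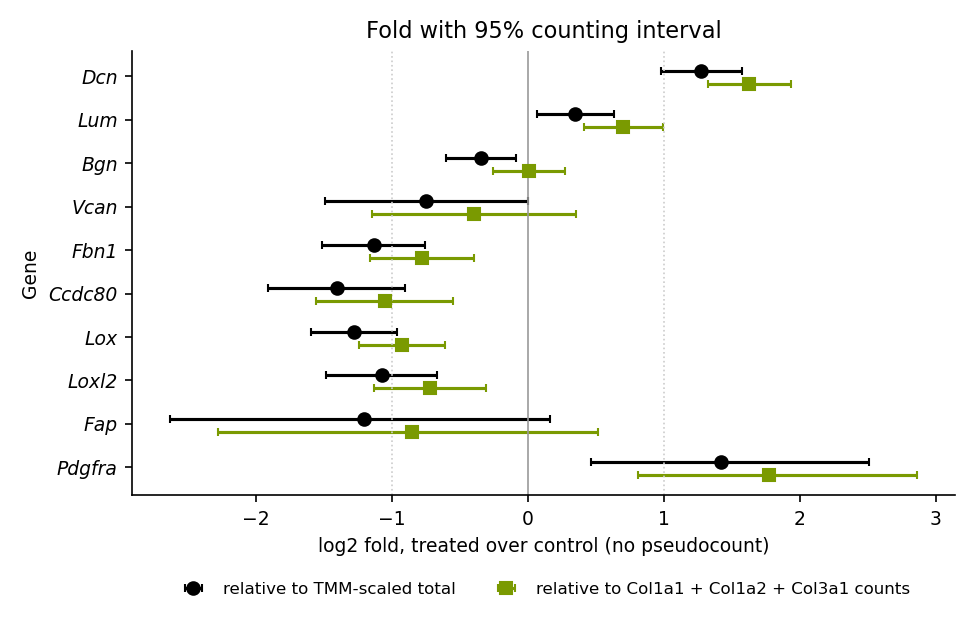
Fold of each gene, treated over control, on a log2 axis with no pseudocount, relative to the scaled library total (circles) or to the summed counts of 3 fibrillar collagen genes (squares); bars are exact conditional 95% intervals for counting error, and dotted lines mark 2-fold. Scaling on collagen moves every gene to the right by the same amount and brings Bgn to a ratio of 1.00, while Dcn and Pdgfra remain on the right and Fbn1, Ccdc80, Lox and Loxl2 on the left.

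The 10 genes lie on 8 chromosomes, and Dcn and Lum are the one neighbouring pair. Exons of Fbn1, Lox, Loxl2 and Pdgfra overlap other annotated genes, and whether strand was used in counting is not stated. The overlapping genes with a row held 3 counts in each library beside Lox and 0 in both libraries beside the other 3 genes. RefSeq promoter windows on the mm10 assembly were matched for 4 of the 10 genes, Bgn, Fbn1, Pdgfra and Vcan. The 250 bases before the start site are shown for 3 of them, as examples of a gene that was higher in the treated tumour (Pdgfra) and of proteoglycan genes that were lower (Vcan and Bgn). The window of Fbn1 lies in an annotated exon and is not shown. The windows are chr5:75152001-75152250 on the plus strand for Pdgfra, chr13:89742513-89742762 on the minus strand for Vcan and chrX:73483351-73483600 on the plus strand for Bgn, and each reads 5′ to 3′ along its gene, with matches to the GC box in capitals.
Pdgfra: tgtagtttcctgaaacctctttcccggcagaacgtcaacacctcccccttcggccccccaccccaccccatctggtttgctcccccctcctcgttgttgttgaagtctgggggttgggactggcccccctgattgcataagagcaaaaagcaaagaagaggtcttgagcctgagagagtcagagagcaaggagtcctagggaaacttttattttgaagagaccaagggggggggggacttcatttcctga
Vcan: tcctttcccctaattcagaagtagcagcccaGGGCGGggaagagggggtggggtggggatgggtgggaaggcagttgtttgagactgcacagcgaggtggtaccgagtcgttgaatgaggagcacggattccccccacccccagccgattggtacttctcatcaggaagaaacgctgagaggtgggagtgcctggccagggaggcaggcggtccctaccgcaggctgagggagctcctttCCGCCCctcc
Bgn: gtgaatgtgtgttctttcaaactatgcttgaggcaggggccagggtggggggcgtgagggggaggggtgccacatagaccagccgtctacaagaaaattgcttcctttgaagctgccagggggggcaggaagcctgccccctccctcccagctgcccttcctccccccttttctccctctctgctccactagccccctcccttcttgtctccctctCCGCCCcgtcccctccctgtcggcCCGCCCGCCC

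The GC box was searched as GGGCGG on both strands, overlapping matches included. It was found 3 times before Bgn, 2 times before Vcan, 1 time before Fbn1 and 0 times before Pdgfra, and 32.7% of the 32851 RefSeq windows held it at least once. The GC content was 54.4% before Pdgfra, 62.4% before Vcan and 64.4% before Bgn, against a median of 52.4% over all windows. The letters TATAAA (12.4% of all windows), TGANTCA of AP-1 (6.75%), ACGTG of the hypoxia response element (16.6%) and GGAATG of TEAD factors (12.6%) were in none of the 4 windows. A CANNTG E-box, which can overlap ACGTG, was found 1 time each before Pdgfra, Vcan and Bgn and is in 66.2% of all windows. These matches describe the letters of short windows, and their part in the differences was not tested.

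Of the 10 intervals, 3 lay wholly above 1, 6 wholly below 1 and 1 contained it. For the 8 genes past the minimum, 2 lay wholly above 1 and 6 wholly below. Among all genes past the minimum, 22.0% had an interval wholly above 1 and 18.9% wholly below 1, so an interval that leaves out 1 is common between these libraries. With the libraries scaled on collagen, 2 of the 8 lay wholly above 1, 4 wholly below, and those of Bgn and Vcan contained it, where 49.4% of all genes past the minimum lay wholly above and 5.58% wholly below. Summed, the 10 genes held 0.0422% of all counts in the treated tumour (0.0402% to 0.0443%, exact Clopper-Pearson interval). In the control tumour they held 0.0480% (0.0452% to 0.0510%). These shares are of unscaled totals. With the TMM-scaled totals, the fold of the sum was 0.860 (0.796 to 0.930). The direction of this sum turned relative to the 3 collagen genes, at 1.10 (1.01 to 1.20), so it depends on the scale. The sum also hides the split. Dcn, Lum and Bgn together were 1.33-fold higher (1.19 to 1.48), Lox and Loxl2 together had a fold of 0.435 (0.366 to 0.515), and the 10 genes without Dcn had a fold of 0.673 (0.617 to 0.734). The last fold had to lie below 0.860, since Dcn had a higher fold than the sum. Of the 3 proteoglycans, Dcn had a fold of 2.42, Lum of 1.27 and Bgn of 0.786, so their sum does not describe each of them.

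The make-up of the set within each library needs no scaling between libraries. Dcn supplied 30.1% of the summed counts of the 10 genes in the treated tumour (27.9% to 32.4%) and 10.7% in the control tumour (8.94% to 12.7%). The share of Bgn was 18.4% in the treated (16.5% to 20.4%) and 20.1% in the control tumour (17.8% to 22.7%), with intervals that overlap. Dcn, Lum and Bgn together made up 69.1% in the treated (66.8% to 71.4%) and 44.8% in the control tumour (41.8% to 47.8%). Lox and Loxl2 made up 15.0% in the treated (13.3% to 16.8%) and 29.7% in the control tumour (27.0% to 32.5%). For each count of a lysyl oxidase there were 4.61 counts of these proteoglycans in the treated tumour and 1.51 in the control tumour, a 3.05-fold difference (2.49 to 3.74). Such ratios show unequal differences and not which gene stayed level.

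**Figure D3:**
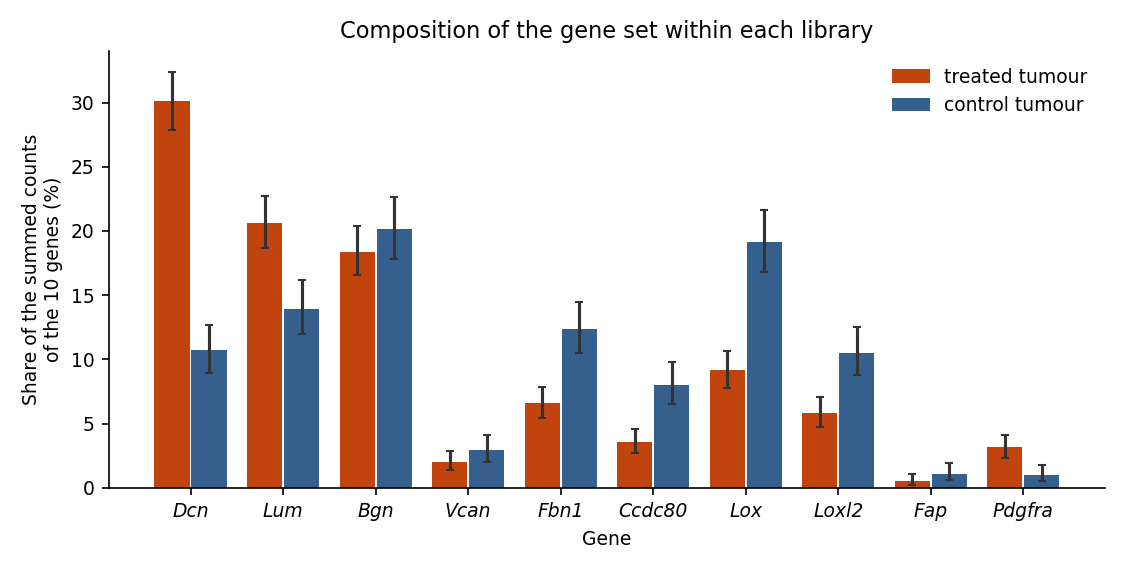
Share of the summed counts of the 10 genes held by each gene, in percent, in the treated and the control tumour; bars start at 0 and error bars are exact Clopper-Pearson 95% intervals for counting error. Dcn holds 30.1% in the treated and 10.7% in the control tumour, while Lox holds 9.17% in the treated and 19.1% in the control tumour.

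Relatives of these genes were examined by lists of known families. Of 16 small leucine-rich proteoglycans, 5 reached the minimum, with Dcn 2-fold higher and none 2-fold lower. Aspn (asporin), found in tumour fibroblasts and in joints, had 27 counts in the treated tumour, against 31 in the control tumour, a 1.99-fold lower level (1.15 to 3.47). Podnl1 had a ratio of 0.947 (0.698 to 1.29). Of 14 versican relatives and other secreted or matrix proteoglycans, 5 reached the minimum. Prg4 (lubricin), a lubricating proteoglycan of joint surfaces, was the 1 gene at least 2-fold lower, with 20 counts in the treated tumour, against 67 in the control tumour, 5.81-fold lower (3.48 to 10.1). Srgn (serglycin), the granule proteoglycan of leukocytes, had 1761 counts in the treated tumour, against 511 in the control tumour and a log2 ratio of 0.99, just short of 2-fold and past it with plain library totals. Neutrophil markers, which are leukocyte genes, summed to 2422 CPM in the treated tumour, against 845 CPM in the control tumour, over 10 genes with none at 0. S100a9 and S100a8 carried most of both sums. S100a9 was at 1369 CPM in the treated tumour, against 416 CPM in the control tumour. S100a8 was at 960 CPM in the treated tumour, against 389 CPM in the control tumour. All 5 neutrophil genes past the minimum were at least 2-fold higher. The 5 under it all had intervals that contained 1. Their ratios were 1.15 for Ngp, 0.937 for Camp, 1.30 for Mmp8, 0.329 for Ltf and 2.31 for Ly6g. Macrophage markers, which are leukocyte genes too, summed to 1411 CPM in the treated tumour, against 1403 CPM in the control tumour, also over 10 genes with none at 0. Among them, Lyz2 was lower, at 402 CPM in the treated tumour, against 636 CPM in the control tumour. The other 9 summed to 1009 CPM in the treated tumour, against 767 CPM in the control tumour. Of the 9 macrophage genes past the minimum, 7 lay above 0 and 2 below. Among these 9, 2 were at least 2-fold higher and none 2-fold lower. Mrc1 was 2.99-fold (2.52 to 3.57) and Cd68 2.57-fold (1.60 to 4.28) higher in the treated tumour. The part of neutrophils and macrophages in the Srgn value was not tested. Agrn (agrin), of basement membranes, was 1.48-fold lower (1.21 to 1.80). None of the 5 membrane proteoglycans past the minimum differed by 2-fold: the syndecans Sdc1 and Sdc4 had ratios of 1.12 (1.02 to 1.24) and 0.988 (0.856 to 1.14), and the glypican Gpc1 1.20 (1.03 to 1.40).

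Of 30 enzymes that build the sugar chains of proteoglycans, 21 reached the minimum and none differed by 2-fold. Their median log2 ratio was 0.07, or 0.41 with the libraries scaled on collagen, and it was -0.80 over the 3 that average 50 CPM or more. Chsy1, which polymerises chondroitin sulphate, and Ext1, which polymerises heparan sulphate, had the lowest ratios, 0.547 (0.435 to 0.689) and 0.568 (0.464 to 0.695). Extl3, which starts heparan sulphate chains, had the highest, 1.57 (1.15 to 2.18). In the hyaluronan list, Has2, the synthase that makes the partner of versican, was the 1 gene at least 2-fold lower, with 277 counts in the treated tumour, against 456 in the control tumour, 2.86-fold lower (2.45 to 3.33). Its receptor Cd44 had a ratio of 0.868 (0.818 to 0.922), and Hmmr, a hyaluronan-binding protein of dividing cells, 1.34 (1.05 to 1.71). The proteases that cut versican, of which 3 reached the minimum, had ratios of 0.930 for Adamts1 (0.722 to 1.20) and 0.712 for Adamts4 (0.553 to 0.919), while Adamts9 was 2.00-fold lower (1.14 to 3.52), a log2 ratio of -0.90 once the pseudocount is added.

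Among 18 listed genes of fibrillin microfibrils and elastic fibres, of which 10 reached the minimum, Fbn1 was the 1 gene 2-fold lower and none was 2-fold higher. With the libraries scaled on collagen both counts turned: Ltbp4 was 2-fold higher, at 1.10 on the log2 scale, and none was 2-fold lower. Fbln2 (fibulin-2), which binds fibrillin, had 732 counts in the treated tumour, against 813 in the control tumour, 1.93-fold lower (1.74 to 2.13). The latent TGF-beta binding proteins Ltbp3 and Ltbp4 had ratios of 0.803 (0.701 to 0.920) and 1.78 (1.09 to 3.03). All 4 lysyl oxidases past the minimum had log2 ratios below 0, with a median of -0.84. Lox and Loxl2, both among the 10 genes described, were 2-fold lower, where 2.50% of all genes past the minimum were. With the libraries scaled on collagen the median was -0.49, none was 2-fold lower and Loxl1 turned to 0.10. Loxl3 was 1.56-fold lower (1.24 to 1.95), Loxl1 had a ratio of 0.844 (0.589 to 1.22), and Loxl4 was too rare to compare at 8 counts in the treated tumour, against 5 in the control tumour.

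Other genes of collagen maturation were spread around 0, with a median log2 ratio of 0.00 over 16 genes, or 0.34 with the libraries scaled on collagen. Plod2, the lysyl hydroxylase whose products yield the more stable crosslinks, was the 1 gene at least 2-fold lower, with 84 counts in the treated tumour, against 140 in the control tumour, 2.89-fold lower (2.19 to 3.83). Its relatives Plod1 and Plod3 lay on both sides, with ratios of 0.707 (0.516 to 0.973) and 1.71 (1.30 to 2.26). With the libraries scaled on collagen, 2 of the 16 were 2-fold higher, where 10.6% of all genes past the minimum were. On that scale 1 was 2-fold lower, where 0.977% were. P4ha1, a collagen prolyl hydroxylase, was 1.81-fold lower (1.46 to 2.24). The collagen chaperone Serpinh1 had a ratio of 0.807 (0.702 to 0.928), Bmp1, the protease that activates prolysyl oxidase, 0.996 (0.870 to 1.14), and Pcolce2, which enhances procollagen processing, 1.72 (1.26 to 2.38).

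Ligands of PDGF receptors were examined beside Pdgfra. Pdgfb had 25 counts in the treated tumour, against 57 in the control tumour, 3.95-fold lower (2.43 to 6.61). Pdgfc had 63 counts in the treated tumour, against 125 in the control tumour, 3.44-fold lower (2.52 to 4.74). Pdgfa had a ratio of 1.29 (1.05 to 1.59). The beta receptor Pdgfrb, a marker of pericytes as well as fibroblasts, had 58 counts in the treated tumour, against 36 in the control tumour, a ratio of 0.929 (0.603 to 1.45). The ratio of Pdgfra to Pdgfrb counts was 0.879 in the treated and 0.306 in the control tumour, a 2.86-fold difference (1.26 to 6.90). Relatives of Fap gave no 2-fold difference: Prep and Dpp8, cytosolic peptidases of the same family, had ratios of 0.987 (0.771 to 1.27) and 0.990 (0.698 to 1.42), and Dpp9 1.54 (0.878 to 2.81).

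Fibroblast genes outside the 10 also lay on both sides. Of 25 past the minimum, 3 passed the 2-fold rule as higher, where 4.23% of all genes did, and 3 as lower, where 2.50% did, and the median log2 ratio was -0.27. With the libraries scaled on collagen, 7 passed as higher, where 10.6% of all genes did, and 1 as lower, where 0.977% did, and the median was 0.08. Col1a1, Col1a2 and Col3a1 are in this list and set that scale, which fixes their summed ratio at 1 and draws the median towards 0. Col6a1 and Col6a2, chains of the microfibrillar collagen VI, were 2.85-fold (1.95 to 4.28) and 3.40-fold (2.11 to 5.77) higher in the treated tumour. Col6a3, another chain of collagen VI, lay the other way. It had 428 counts in the treated tumour, against 397 in the control tumour, 1.61-fold lower (1.40 to 1.85). Mgp (matrix Gla protein), an inhibitor of calcification, was 2.69-fold lower (2.22 to 3.27), with 179 counts in the treated tumour, against 278 in the control tumour. Fn1 (fibronectin), which carcinoma cells also make, had a ratio of 0.749 (0.718 to 0.781).

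**Figure D4:**
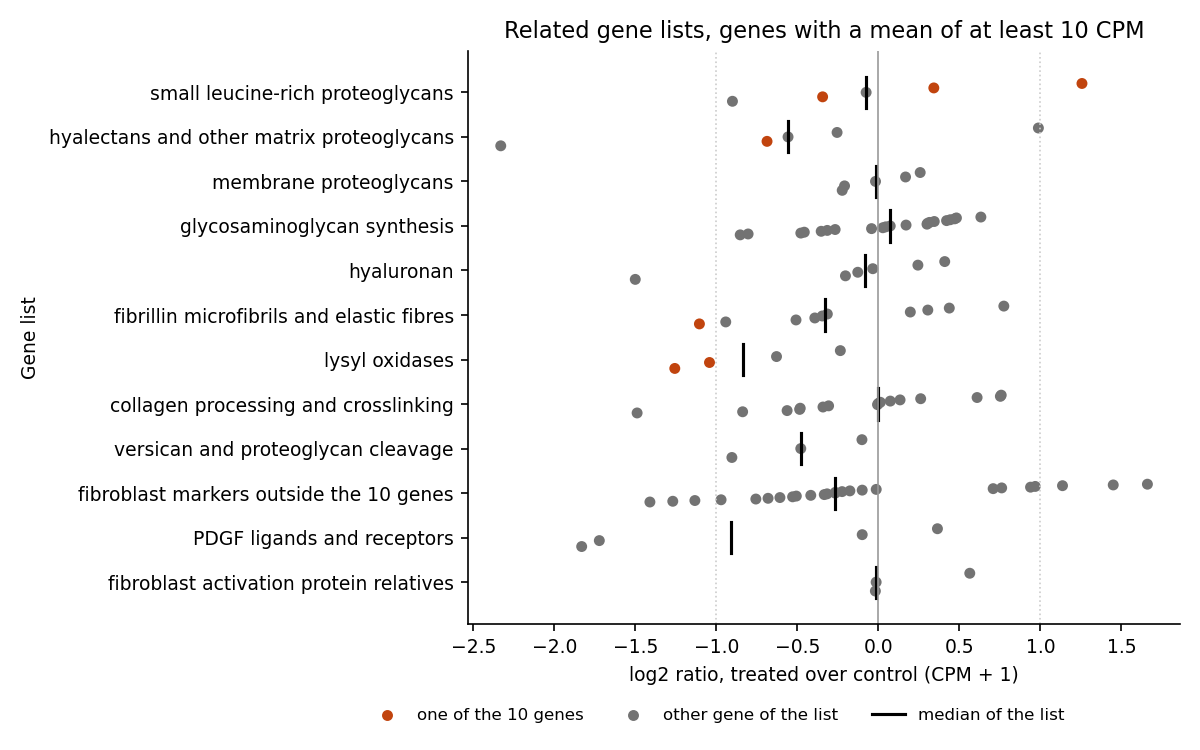
log2 ratio of CPM + 1, treated over control, for each gene that averages 10 CPM or more in 12 lists of related genes; orange points are among the 10 genes described, grey points are other genes, black lines are list medians and dotted lines mark 2-fold. Lysyl oxidases lie left of 0 with a median of -0.84 (Loxl1 at 0.10 with the libraries scaled on collagen), glycosaminoglycan enzymes have a median of 0.07 (0.41 on the collagen scale) and fibroblast markers spread to both sides.

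Markers of other cell types differed between the same libraries. Keratinocyte genes summed to 2660 CPM in the treated tumour, against 162 CPM in the control tumour over 11 genes with a row. All 10 past the minimum were at least 2-fold higher, and Ivl was at 0 in the control tumour. Skin also holds fibroblasts with decorin and Pdgfra, and the part of skin in those 2 values was not tested. Adipocyte genes summed to 99.1 CPM in the treated tumour, against 616 CPM in the control tumour over 8 genes, of which Lep was at 0 in the treated tumour. Endothelial genes summed to 221 CPM in the treated tumour, against 409 CPM in the control tumour, over 12 genes with none at 0. Pericyte and smooth muscle genes summed to 172 CPM in the treated tumour, against 360 CPM in the control tumour, also over 12 genes with none at 0. Tagln (transgelin), an actin-binding protein of smooth muscle, carried most of that gap, at 47.6 CPM in the treated tumour, against 196 CPM in the control tumour. The other 11 genes summed to 124 CPM in the treated tumour, against 164 CPM in the control tumour. Of the 5 genes of this list past the minimum, 4 lay below 0 and 1 above. Mylk was 1.66-fold higher (1.03 to 2.76) in the treated tumour and Acta2 1.91-fold lower (1.48 to 2.47). Under the minimum, Notch3 was 5.19-fold higher (2.24 to 14.8). Also under it, Cspg4 was 5.78-fold (2.24 to 17.6), Cnn1 4.34-fold (1.25 to 18.9), Abcc9 3.32-fold (1.59 to 7.33) and Kcnj8 2.01-fold (1.04 to 3.92) lower. The 9 endothelial genes past the minimum were all below 0. Under it, Vwf had a ratio of 3.46 (1.01 to 18.3), Tie1 of 1.73 (0.708 to 4.82) and Erg of 0.769 (0.234 to 2.69). The part of these cells in the lower values of Ccdc80, Fbn1, Lox and Loxl2 was not tested. Cartilage and bone genes were low, at 108 CPM in the treated tumour, against 238 CPM in the control tumour over 11 genes. Ibsp (bone sialoprotein) carried most of the gap, at 5.43 CPM in the treated tumour, against 118 CPM in the control tumour. The other 10 genes summed to 102 CPM in the treated tumour, against 120.3 CPM in the control tumour. In this list, Acan, Bglap, Col2a1, Matn1 and Sp7 were at 0 in both libraries and Alpl at 0 in the treated tumour. Skeletal muscle genes summed to 1409 CPM in the treated tumour, against 946 CPM in the control tumour over 9 genes, and without Pvalb to 80.5 CPM in the treated tumour, against 50.7 CPM in the control tumour. Of the 4 muscle genes past the minimum, 3 lay above 0 and 1 below, Tnni2 at a ratio of 0.642 (0.435 to 0.948). Carcinoma genes of 4T1 summed to 5511 CPM in the treated tumour, against 4924 CPM in the control tumour over 10 genes, and none differed by 2-fold.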

How the data were processed

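Bulk RNA of 2 4T1 tumours was measured. Libraries were built with an AccuraCode kit from 1.5 µg of total RNA per the labels, and mm10 is the build in the submitters' processing notes. How reads were aligned, assigned to strand or gene, and collapsed is not stated. The authors deposited counts per gene in 2 sheets; 31 rows of autophagy genes are on another, unknown scale and were left out of totals, scaling and lists. Columns were tied to samples through each sample's own sheet, which holds 1 column of that name. A further 7 columns of values were not used.

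Totals were scaled by TMM, written from its formula (trimming 30% of M values and 5% of A values per tail, factors 1.01 for the treated and 0.989 for the control library), in Python 3.11.15 with numpy 2.4.6, scipy 1.17.1 and pandas 2.3.3. log2 ratios used CPM plus a pseudocount of 1; folds used none. Depth limits precision to the counting intervals given, which cover counting error only. The scaling and the 2-fold rule were tried on simulated counts that held counting error only, with no variation between tumours. The differences put in were larger than 2-fold and lay in genes that average 50 CPM or more. Differences near 2-fold, or in rarer genes, were therefore not covered. Positions are from GENCODE M21 by Ensembl identifier, which matched all 10 genes, and promoters are RefSeq's on GRCm38.

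The genes, lists and rules were chosen with earlier results of these data known. Named relatives are, per list, up to 3 with the largest ratio and the 2 most abundant past the minimum; not all are printed. Loxl4, Kera, Epyc, Pdgfrb, Col6a3, Plod1 and Plod3 were named after their values were seen, as were the marker sums without 1 gene. The same holds for the cell type markers Tagln, Notch3, Mylk, Acta2, Cspg4, Abcc9, Kcnj8, Cnn1, Ibsp, Pvalb, Ngp, Camp, Mmp8, Ltf and Ly6g. It also holds for Vwf, Tie1, Erg, Mrc1 and Cd68. Gene patterns were not ranked by likeness, since 2 libraries give 1 ratio per gene. Alternatives were 5 other scalings, of which scaling on collagen was added after the data were seen, pseudocounts of 0.5 and 5, minimum means of 0, 1 and 50 CPM, a 1.5-fold rule, the second sheet, and keeping the 31 rows.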

Additional observations from a re-analysis of the deposited data

How the results depend on the processing

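The sign of every gene's ratio was the same as in the report in 89 of 90 values over 9 alternative settings, and 86 of 90 lay within the counting interval; the exception in sign was Bgn, at 0.01 on the log2 scale with the libraries scaled on collagen, an alternative chosen after seeing the data. That scaling moved the median of all genes by 0.35, left 1 gene at least 2-fold lower and gave the 10 genes a median of -0.51. The genes at least 2-fold higher numbered 2, with Pdgfra, with no minimum, with a minimum of 1 CPM and with totals that leave out mitochondrial, haemoglobin and ribosomal protein genes. With a minimum of 50 CPM, 4 genes were left, 1 was at least 2-fold lower and the median was -0.00105; with a pseudocount of 5 the median was -0.51. The summed share of the 10 genes was 0.0546% in the treated and 0.0646% in the control tumour with those reduced totals, and 0.0396% in the treated and 0.0426% in the control tumour with the 31 off-scale rows kept. The causes were not tested beyond the smaller gene number and totals that these settings make. List medians moved by less than 0.1 in 105 of 142 cases; that of the sugar chain enzymes, 0.07, was 0.41 with collagen as scale and -0.80 with a minimum of 50 CPM, over 3 genes. The second sheet holds the same values for all 10 genes. No paired analysis was possible because there is 1 library per group. Pdgfra, Fap and Vcan, with 9 to 51 counts a library, are limited by depth.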

Other observations

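The 2 deposited sheets differ for 3 genes of epidermal or other epithelial cells in the control tumour, and for no other gene that both hold. Dsc3, a desmosomal cadherin, is listed at 0 control counts in the full sheet and 89 in the second sheet. Krt79, a keratin, has 1 control count in the full sheet and 99 in the second, and Pof1b, an epithelial actin-binding protein, 2 in the full and 99 in the second. Their treated values, 200, 215 and 213 counts, are the same in both sheets. The second sheet also leaves out 40 genes of the full sheet, none of them among the 10 described here.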
